A study of Mus musculus with 74 samples.

Results

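The genes described here are 8 transcription factor genes of the early neural lineage, measured in mouse embryonic stem (ES) cells: Sox1, Sox3, Sox4, Sox11, Sox21, Pou3f1, Pou3f2 and Pax6. They were taken by name, with earlier results of these data known, from RNA-seq tables that list 37620 genes in 35 libraries. The paper already names Sox3, Sox11 and Pou3f1 among genes on which Nanog and Otx2 act in opposite ways. Shares of members called are therefore given beside those of all genes as descriptions. A row was found for 7 of the 8 genes, and Sox1 was not analysed here. For Pou3f1 and Sox4, which are listed under a pair of identifiers each, the identifier with more counts was used. The 6 genes other than Pou3f2 had enough counts to be tested in SunTag cells, and Pou3f2 never had more than 4 counts in a library.

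Sox proteins bind DNA through an HMG box. Sox1 and Sox3 belong, with Sox2, to the SoxB1 class, which keeps neural progenitors undifferentiated, whereas Sox21 is a SoxB2 protein, a class known to counteract SoxB1 proteins at shared targets. Sox4 and Sox11 are SoxC proteins, known from maturing neurons and from many embryonic tissues. Pou3f1 (Oct6) and Pou3f2 (Brn2) are POU-domain proteins that bind octamer motifs, and Pou3f1 marks the epiblast after it has left the naive state and is known to promote neural fate. Pax6 is a paired-box and homeodomain protein of the neural tube, eye and pancreas.

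ES cells of mice stay undifferentiated in serum when leukaemia inhibitory factor (LIF) is present, and the study asked what the pluripotency factor Nanog does in its presence and absence. SunTag is a CRISPR activator made of a catalytically dead Cas9 carrying epitope repeats and an antibody fused to the VP64 activation domain. Both parts were switched on by doxycycline (Dox, 1 µg/mL), and a guide RNA brought them to the promoter of an endogenous gene. All SunTag cells derived from E14Tg2a ES cells through 2 parental clones, C1 and C2.

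Nanog SunTag cells carried a guide to Nanog and were 1 clone from C1 and 1 from C2. Nanog/Otx2 SunTag cells were made from them by adding a guide to Otx2, again 1 clone from each, so that Dox acted on both genes at once. Cells were plated in serum medium with LIF (10 ng/mL) or without it, with or without Dox, and lysed after 72 h. Nanog SunTag cells gave 3 libraries with LIF without Dox (C1-1, C2-1 and C2-2), 2 with LIF and Dox (C1-1 and C2-1), 3 without LIF or Dox (C1-1, C1-2 and C2-1) and 3 without LIF with Dox (C1-1, a further C1-1, and C2-2). Nanog/Otx2 SunTag cells gave 3 libraries with LIF without Dox (C1-1, C1-2 and C2-1) and 4 (C1-1, C1-2, C2-1 and C2-2) in each of the other conditions. The other cells were all grown in serum and LIF: Nanog-null 44iN cells with a Dox-inducible Nanog transgene, sampled with Dox (2 libraries), 24 h after Dox was removed (2) and when kept without Dox for long under G418 selection (2), and wild-type Tg2a cells (3). Below, libraries are always named in the order just given.

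Counts summed to between 6107512 and 92244655 per library. Nanog had between 18320 and 29487 normalised counts in the SunTag libraries with LIF without Dox, and between 40628 and 93813 in those with LIF and Dox. Without LIF its range was 1974 to 8484 without Dox and 31697 to 55641 with Dox. In both media every library with Dox was above every library without it. Otx2 had at most 2620 normalised counts in Nanog SunTag cells without LIF with Dox and at least 6827 in Nanog/Otx2 SunTag cells in the same medium. A normalised count is the authors' estimated count divided by a size factor of its library. The summed level of 10 naive pluripotency genes lay between 60661 and 80159 normalised counts in the SunTag libraries with LIF, and between 2684 and 4158 in those without LIF or Dox. RNA came from whole cultures, in which fewer cells of a kind and less RNA per cell cannot be told apart.

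The guides are shown because they brought the activator to Nanog and Otx2 in the SunTag cells below. SunTag cells without a guide are not among the libraries, so an effect of Dox apart from the guides was not tested. Each target is given 5′ to 3′ with its PAM in capitals, on mm9.
Nanog guide target: cttcccactagagatcgccaGGG
Otx2 guide target: aatgtagagcgtgcatttggAGG
The Nanog target lies on the plus strand of chr6:122657269-122657291, which is 227 bases upstream of the Nanog start, in no exon. The Otx2 target lies on the minus strand of chr14:49282646-49282668, within Otx2 and in no exon, where 6 of the 8 annotated Otx2 transcripts span it. A start of Otx2 transcripts is 110 bases downstream of it.

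The members lie on 6 chromosomes of mm9. Sox3 (ENSMUSG00000045179) is at chrX:58144545-58146605, Sox4 (ENSMUSG00000076431) at chr13:29040788-29045582 and Sox11 (ENSMUSG00000063632) at chr12:28025562-28027574. Sox21 (ENSMUSG00000061517) is at chr14:118632454-118636252, Pou3f1 (ENSMUSG00000090125) at chr4:124334889-124337899, Pou3f2 (ENSMUSG00000052621) at chr4:22413791-22415480 and Pax6 (ENSMUSG00000027168) at chr2:105509053-105543317. The annotation at hand calls the counted Pou3f1 identifier a pseudogene, and the protein-coding identifier at the same place (ENSMUSG00000078236) had at most 114 counts in a library. Reads of such a locus can be split between the identifiers. Elp4, on the opposite strand of Pax6, had up to 2803 counts. The reads were stranded.

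Without LIF or Dox, Pou3f1 was the most abundant member per length and Sox4 came next. Pou3f1 had a mean of 1145 normalised counts per kb of exon in Nanog SunTag cells and 2006 in Nanog/Otx2 SunTag cells, beside 712 and 575 for Sox4, 222 and 381 for Sox11 and 128 and 217 for Sox3. With LIF and without Dox, Sox4 led instead, at 257 and 218 normalised counts per kb. Pax6 (10.5 and 11.4 without LIF or Dox) and Sox21 (4.0 and 2.1) were the least abundant of the 6 tested members per kb of exon there. All exons of Pax6 sum to 19.8 kb, the longest of these genes.

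**Figure D1:**
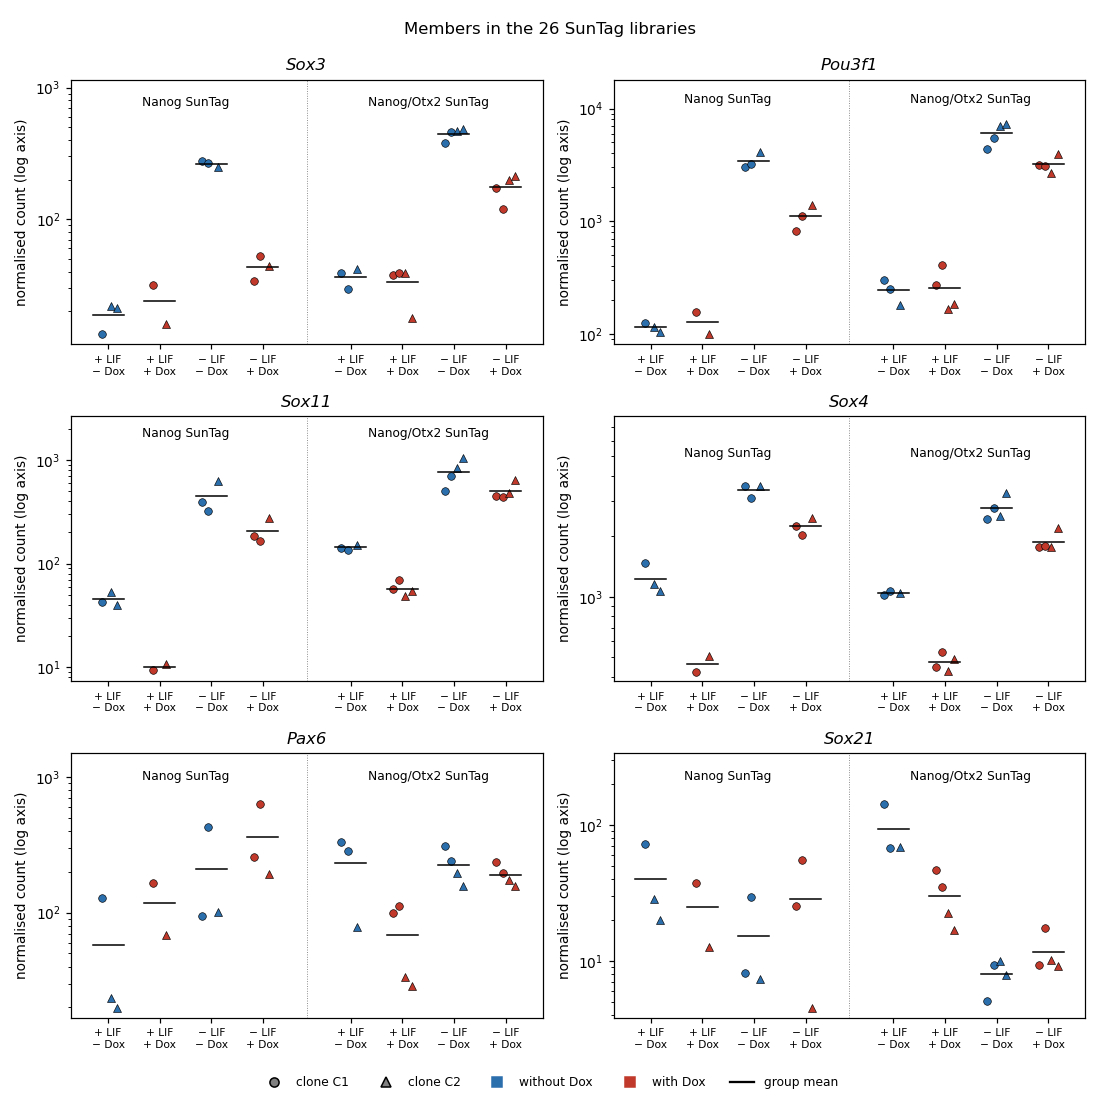
Normalised counts (log axis) of the 6 tested members in the 26 SunTag libraries, with circles for clone C1, triangles for clone C2, blue without Dox, red with Dox and a line at each group mean. Sox3, Pou3f1, Sox11 and Sox4 were higher in every library without LIF or Dox than in any with LIF and without Dox of the same cells, Sox21 was low without LIF in Nanog/Otx2 SunTag cells, and Pax6 was mostly higher in clone C1.

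Leaving out LIF in the absence of Dox addressed how the members respond when self-renewal is no longer supported. In Nanog SunTag cells Pou3f1, Sox3, Sox11 and Sox4 rose, by 29.7-fold, 13.5-fold, 9.68-fold and 2.73-fold, whereas Pax6 and Sox21 did not pass the test. Thus 4 of the 6 tested members were called higher, where 20.2% of the 15624 genes tested were, and 0 were called lower, where 21.3% were. Called means an adjusted p under 0.05 in edgeR's quasi-likelihood test, adjusted over all genes tested by the Benjamini-Hochberg method. Errors of log2 fold changes are standard errors of that fit. Ranges without overlap are described for members, and how often other genes show them was not counted. No source says that the libraries of a clone came from separate cultures, so the p-values measure the spread between these libraries.

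Pou3f1 had 126, 116 and 104 normalised counts in the 3 Nanog SunTag libraries with LIF without Dox, and 3049, 3192 and 4101 in the 3 without LIF or Dox. The groups were far apart, and the C2 library was the highest without LIF. Its log2 fold change was 4.89 ± 0.27 (adjusted p = 6.79e-07).

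Sox3, the SoxB1 member, had 13.4, 21.8 and 21.2 normalised counts with LIF and 278, 266 and 248 without it. Libraries without LIF lay close together and above all of those with LIF, whose counts of 5 to 17 reads were few. The log2 fold change was 3.75 ± 0.34 (adjusted p = 1.12e-05).

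Of the SoxC genes, Sox11 had 42.8, 53.6 and 40.0 normalised counts with LIF and 390, 323 and 624 without it. Its log2 fold change was 3.28 ± 0.33 (adjusted p = 2.23e-05). Again the groups did not overlap, and the C2 library was the highest without LIF. Sox4 started from a higher level, with 1473, 1153 and 1074 normalised counts with LIF and 3557, 3123 and 3569 without it, also without overlap. It changed least of the genes called, with a log2 fold change of 1.45 ± 0.17 (adjusted p = 6.6e-05).

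Pax6 had 129, 23.5 and 20.0 normalised counts with LIF and 94.5, 429 and 101 without it. These ranges overlapped, because the C1 library with LIF lay above a C1 library without it, and the log2 fold change of 1.93 ± 0.83 was not called (adjusted p = 0.0815). Sox21 had 72.3, 28.5 and 20.0 normalised counts with LIF and 8.1, 29.7 and 7.4 without it, again with overlap (log2 fold change -1.41 ± 0.87, adjusted p = 0.211). With the clone as a block, so that libraries were compared within C1 and within C2, Pax6 was called higher (1.59 ± 0.57, adjusted p = 0.0400) and Sox21 lower (-2.05 ± 0.60, adjusted p = 0.0167). That block called 7239 of the 15624 genes tested in either direction, where 6481 were called without it. Sox21 entered the test through its levels with LIF, as it had under 10 normalised counts in at least 1 library of each group without LIF. Pou3f2 had 0 counts in the 3 libraries with LIF without Dox and 3, 1 and 1 in the 3 without LIF or Dox, too few for a fold.

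Nanog/Otx2 SunTag cells without Dox gave the same 4 genes, and Sox21 fell in addition. Here 4 of the 6 tested members were called higher, where 24.6% of the 15609 genes tested were, and 1 lower, where 25.2% were. Pou3f1 had 300, 248 and 181 normalised counts with LIF and 4332, 5462, 7066 and 7294 without it (log2 fold change 4.54 ± 0.31, adjusted p = 3.03e-08). The 2 C2 libraries were above the 2 C1 libraries without LIF, and the order with LIF was the opposite. Sox3 had 38.9, 29.5 and 41.7 normalised counts with LIF and 379, 458, 468 and 481 without it (3.62 ± 0.29, adjusted p = 1.4e-07). No library of one group reached the other for either gene.

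Sox11 in Nanog/Otx2 SunTag cells had 142, 137 and 153 normalised counts with LIF and 499, 692, 832 and 1043 without it (log2 fold change 2.39 ± 0.23, adjusted p = 8.25e-07). Sox4 had 1017, 1067 and 1046 with LIF and 2443, 2757, 2541 and 3297 without it (1.37 ± 0.12, adjusted p = 2.74e-07). Both SoxC genes were separated completely between the groups. Sox21, the SoxB2 member, went the other way: it had 144, 67.4 and 69.4 normalised counts with LIF and 5.0, 9.2, 10.0 and 7.8 without it, a log2 fold change of -3.67 ± 0.42 (adjusted p = 4.6e-06). It passed the filter on low counts through the groups with LIF. Pax6 had 330, 287 and 78.7 normalised counts with LIF and 311, 239, 195 and 157 without it, so that the lowest value belonged to the C2 library with LIF. Its log2 difference of -0.14 ± 0.45 was not called (adjusted p = 0.820), and its 95% interval ran from -1.09 to 0.81.

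**Figure D2:**
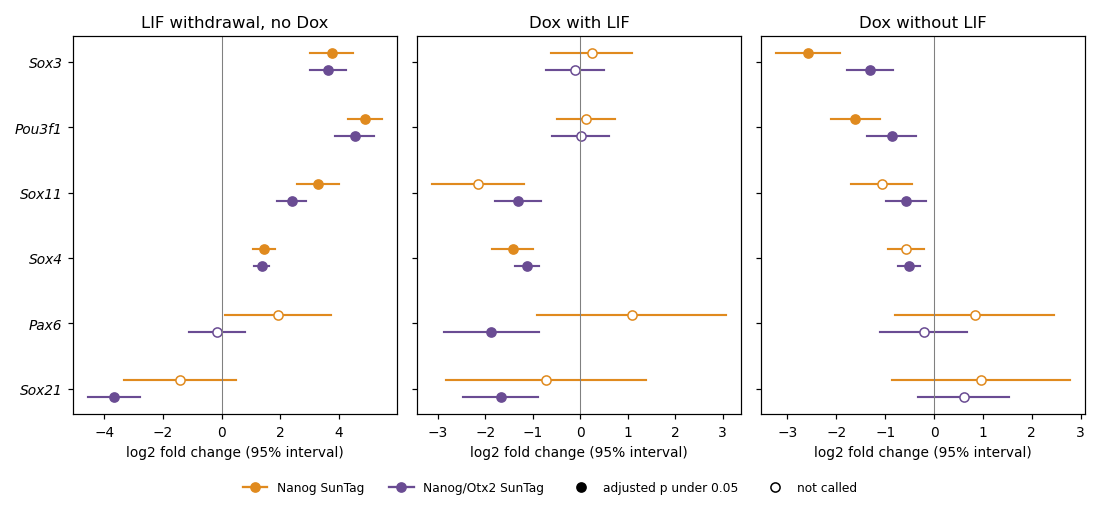
Log2 fold changes of the 6 tested members with 95% intervals for LIF withdrawal without Dox, Dox with LIF and Dox without LIF, in Nanog SunTag (orange) and Nanog/Otx2 SunTag cells (purple), filled where the adjusted p was under 0.05. Sox3 and Pou3f1 lie near 0 for Dox with LIF and below 0 for Dox without LIF, whereas Sox11 and Sox4 lie below 0 in both.

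Switching on Nanog without LIF asked whether Nanog acts on these genes when LIF does not. This comparison shares the libraries without LIF or Dox with the one above. In Nanog SunTag cells Sox3 fell to 0.167 and Pou3f1 to 0.327 of the level without Dox, and both stayed above the libraries with LIF. None of the 6 tested members was called higher, where 3.6% of the genes tested were, and 2 were called lower, where 1.54% were.

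Sox3 had 33.8, 52.3 and 44.3 normalised counts in the libraries without LIF with Dox, all far below the 248 to 278 without Dox (log2 fold change -2.58 ± 0.30, adjusted p = 6.73e-04). Pou3f1 had 811, 1118 and 1387, against at least 3049 without Dox (-1.61 ± 0.23, adjusted p = 0.00205). In neither gene did a library with Dox reach the range without it.

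The SoxC genes were also lower in every library with Dox. Sox11 had 183, 166 and 273 normalised counts (log2 fold change -1.08 ± 0.29, adjusted p = 0.0534) and Sox4 had 2259, 2028 and 2470 (-0.57 ± 0.17, adjusted p = 0.0731), both just outside the threshold. With the clone as a block both were called, with adjusted p = 0.00820 for Sox11 and 0.0492 for Sox4, and the members called lower became 4. That block called 1375 of the 15624 genes tested in either direction, where 803 were called without it. Pax6 had 257, 634 and 193 normalised counts and Sox21 25.5, 54.9 and 4.5, values that overlapped with those without Dox (log2 fold changes 0.83 ± 0.75 and 0.96 ± 0.84, adjusted p = 0.640 and 0.626). The C1 libraries were the higher ones in both. Pou3f2 had 4, 0 and 0 counts.

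In Nanog/Otx2 SunTag cells, where Dox raised Otx2 together with Nanog, Sox3, Pou3f1, Sox11 and Sox4 all fell without LIF. Of the 6 tested members, 0 were called higher, where 11.2% of the genes tested were, and 4 lower, where 6.15% were. Sox3 had 171, 120, 199 and 212 normalised counts with Dox (log2 fold change -1.30 ± 0.22, adjusted p = 9.94e-04), and Pou3f1 had 3158, 3072, 2704 and 3967 (-0.87 ± 0.23, adjusted p = 0.0193). All lay below the 379 and 4332 that were the lowest values without Dox. Sox4 had 1766, 1794, 1771 and 2212 normalised counts (-0.51 ± 0.10, adjusted p = 0.00370), which also did not overlap with those without Dox.

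Sox11 had 450, 435, 477 and 636 normalised counts in the same libraries, and the C2-2 library with Dox lay above the lowest without it. Its log2 fold change of -0.57 ± 0.19 was at the threshold (adjusted p = 0.0477), and the call was lost in 13 of the 15 fits that left out a library. Pou3f1 lost its call in 4 of the 15. Pax6 had 237, 195, 173 and 157 and Sox21 9.3, 17.5, 10.1 and 9.2 normalised counts, and neither was called (-0.22 ± 0.42 and 0.60 ± 0.44, adjusted p = 0.771 and 0.379).

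With LIF present, Dox lowered SoxC genes, and neither Sox3 nor Pou3f1 was called. In Nanog SunTag cells Sox4 had 423 and 508 normalised counts with Dox, below all 3 libraries without it, and fell to 0.375 of the level without Dox (log2 fold change -1.42 ± 0.20, adjusted p = 0.0159). It was the single member called, so 1 of 6 was lower, where 0.141% of the genes tested were, and 0 were higher, where 0.422% were. Nanog, the targeted gene, rose 3.35-fold and was itself not called by this edgeR test (adjusted p = 0.0793). A member that was not called may thus still have changed. Sox11 had 9.3 and 10.8 normalised counts, also below all 3 without Dox, and its larger log2 fold change of -2.15 ± 0.44 missed the threshold (adjusted p = 0.0581), but was called when clones were a block (adjusted p = 0.0164). Without the C1-1 library with LIF and Dox, which leaves 1 library there, Sox4 was not called (-1.27).

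Sox3 had 31.7 and 16.1 normalised counts and Pou3f1 155 and 99.6 in these Nanog SunTag libraries with LIF and Dox, ranges that overlapped with those without Dox. Their log2 differences were 0.24 (95% interval -0.62 to 1.10) and 0.12 (-0.49 to 0.73). Sox3 had 5 to 17 reads without Dox and 17 and 18 with it, too few for a fall to show well. Pax6, with 166 and 68.2 normalised counts, and Sox21, with 37.3 and 12.6, were not called either, and in both genes the C1 library was the higher. Pou3f2 had no counts.

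Dox with LIF in Nanog/Otx2 SunTag cells lowered both SoxC genes, Sox21 and Pax6. These 4 of 6 tested members were called lower, where 10.0% of the genes tested were, and 0 higher, where 12.9% were. Sox4 had 449, 531, 427 and 493 normalised counts with Dox and Sox11 had 56.4, 69.3, 48.7 and 54.4, all under the values of at least 1017 and 137 without Dox. The log2 fold changes were -1.12 ± 0.12 for Sox4 (adjusted p = 3.97e-05) and -1.31 ± 0.23 for Sox11 (adjusted p = 0.00130).

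Sox21 had 47.0, 34.7, 22.5 and 16.8 normalised counts with LIF and Dox, below the 67.4 to 144 without Dox (log2 fold change -1.68 ± 0.37, adjusted p = 0.00553). Pax6 had 99.2, 112, 33.7 and 29.0, with C1 above C2 (-1.87 ± 0.47, adjusted p = 0.0102). The C1 libraries with Dox lay above the C2 library without it, at 78.7, and below both C1 libraries without it. Both calls were lost without the C1-1 library with LIF without Dox, which held the highest value of each gene (-1.18 for Sox21 and -1.56 for Pax6). Sox3 had 37.6, 39.2, 39.3 and 17.8 normalised counts and Pou3f1 270, 407, 168 and 185. Neither was called, and the 95% intervals of their log2 differences were -0.72 to 0.51 and -0.59 to 0.60.

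Whether Dox acted differently without LIF than with it was tested by the interaction of both factors. In Nanog SunTag cells the Dox effect on Sox3 was lower without LIF by 2.82 ± 0.49 log2 units (adjusted p = 0.0162) and that on Pou3f1 by 1.73 ± 0.36 (adjusted p = 0.0335). These were 2 of 6 tested members called lower, where 0.608% of the genes tested were, and 0 were called higher, where 1.32% were. The SoxC genes went the other way without passing the test, at 0.84 ± 0.25 for Sox4 (adjusted p = 0.124) and 1.08 ± 0.52 for Sox11 (adjusted p = 0.366). Calls for Sox3 were lost in 3 and those for Pou3f1 in 8 of the 11 fits that left out a library. Sox3 had only 5 to 17 reads with LIF without Dox, and 17 and 18 with LIF and Dox. A fall of Sox3 on Dox could hardly have shown at these levels.

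For Nanog/Otx2 SunTag cells the interaction was called for Sox4 (0.61 ± 0.16, adjusted p = 0.0217) and Sox21 (2.28 ± 0.58, adjusted p = 0.0209). Dox lowered Sox4 more with LIF than without it, and Sox21 was called lower with LIF and not called without it. Sox21 had only 5.0 to 10.0 normalised counts without LIF or Dox, so a further fall could hardly have shown there. It passed the filter on low counts through the groups with LIF. The interaction was called higher for 2 of 6, where 5.15% of the genes tested were, and lower for 0, where 4.55% were. Sox3 stood at -1.19 ± 0.36 (adjusted p = 0.0519) and Pou3f1 at -0.87 ± 0.36 (adjusted p = 0.163). With the clone and its number as a block, Sox3 (-1.12, adjusted p = 0.0425), Sox11 (0.93, adjusted p = 0.0152) and Pax6 (1.55, adjusted p = 0.00932) were called as well. Under that block 3407 of the 15609 genes tested were called in either direction, where 1514 were called without it. Leaving out a library ended the call for Sox4 in 2 and for Sox21 in 3 of the 15 fits.

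With Dox in both media, leaving out LIF still raised the SoxC genes and Pou3f1. In Nanog SunTag cells Sox11 rose 20.4-fold, Pou3f1 8.97-fold and Sox4 4.91-fold. On the log2 scale these were 4.35 ± 0.44, 3.17 ± 0.29 and 2.30 ± 0.20 (adjusted p = 9.46e-05, 6.27e-05 and 5.71e-05). These 3 of 6 tested members were called higher, where 17.1% of the genes tested were, and 0 lower, where 15.5% were. Sox3 was higher without LIF by 0.93 ± 0.36 log2 units, which was not called (adjusted p = 0.0679), although its lowest library without LIF (33.8) exceeded the highest with LIF (31.7).

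With Dox in Nanog/Otx2 SunTag cells, all 6 tested members were called: 5 higher without LIF, where 18.7% of the genes tested were, and Sox21 lower, where 17.9% were. Pou3f1 rose 12.7-fold, Sox11 8.75-fold, Sox3 5.37-fold, Sox4 3.94-fold and Pax6 2.86-fold. For Pax6 the log2 fold change was 1.51 ± 0.44 (adjusted p = 0.0146), and its 4 libraries without LIF (157 to 237) lay above the 4 with LIF (29.0 to 112). Sox21 fell by 1.39 ± 0.39 on the log2 scale (adjusted p = 0.0126), from 16.8 to 47.0 normalised counts to 9.2 to 17.5.

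The guide pair was then compared directly over all 26 SunTag libraries. The Dox effect without LIF was less negative in Nanog/Otx2 than in Nanog SunTag cells for Sox3, by 1.24 ± 0.35 log2 units, but this was not called (unadjusted p = 0.00166, adjusted p = 0.484). For Pou3f1 the difference was 0.70 (95% interval -0.02 to 1.42), for Sox11 0.45 (-0.23 to 1.14) and for Sox4 0.02 (-0.36 to 0.39). None of the 6 tested members was called in either direction by edgeR or by DESeq2, and 1 had an unadjusted p under 0.05. Of the 16210 genes tested, 0.0308% were called. The Dox effect with LIF also gave 0 members called by either tool, where 0.037% of the genes were called. Pax6 was the single member with an unadjusted edgeR p under 0.05 (-2.99 ± 1.02, unadjusted p = 0.00766, adjusted p = 0.297).

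The levels themselves differed between the cells more often. Without LIF with Dox, Sox3 was 3.89-fold, Pou3f1 2.79-fold and Sox11 2.30-fold higher in Nanog/Otx2 than in Nanog SunTag cells (log2 differences 1.96 ± 0.26, 1.48 ± 0.26 and 1.20 ± 0.24, adjusted p = 7.26e-06, 1.29e-04 and 4.61e-04). No library of the Nanog cells reached those of the Nanog/Otx2 cells for these 3 genes, and how many of all genes separate in this way was not counted. Sox4 was called lower, at -0.32 ± 0.13 (adjusted p = 0.0458), a call lost in 16 of the 26 fits that left out a library. So 3 of 6 members were called higher, where 20.1% of the genes tested were, and 1 lower, where 20.9% were.

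Before Dox, Sox3, Sox11 and Pou3f1 were already higher without LIF in Nanog/Otx2 SunTag cells, by 0.72 ± 0.24, 0.75 ± 0.24 and 0.78 ± 0.25 log2 units (adjusted p = 0.0304, 0.0224 and 0.0257). These 3 of 6 members were higher, where 13.5% of the genes tested were, and 0 lower, where 11.9% were. With the parental clone as a block Sox4 was called lower (-0.35 ± 0.12, adjusted p = 0.0321). Both sets of cells carry their own code in the column names of the tables, as separate sets of libraries, so a level difference between the cells and one between the sets cannot be told apart. The calls for Sox3, Sox11 and Pou3f1 without Dox were lost in 6, 4 and 4 of the 26 fits that left out a library.

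Over the 12 groups of cells and media, the order of mean levels separated the groups without LIF from the rest for Sox3, Sox4, Sox11 and Pou3f1. For Pou3f1, Nanog/Otx2 SunTag cells without LIF or Dox came first (6039 ± 1400 normalised counts, SD, n = 4), and their libraries did not overlap with the next group. Nanog SunTag cells without LIF or Dox (3447 ± 571, n = 3) and Nanog/Otx2 SunTag cells without LIF with Dox (3225 ± 533, n = 4) overlapped with each other, and Nanog SunTag cells without LIF with Dox (1105 ± 288, n = 3) stood apart from both neighbours. The 8 groups with LIF ranged from 115 to 347, each overlapping with its neighbour. Sox3 had the same leading groups in the order 447 ± 45.9, 264 ± 14.8 and 176 ± 40.8, with no overlap, before 43.5 ± 9.25 in Nanog SunTag cells without LIF with Dox, which overlapped with the groups with LIF that followed.

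Sox11 led in Nanog/Otx2 SunTag cells without LIF (767 ± 229 without Dox and 500 ± 92.5 with it), overlapping with Nanog SunTag cells without LIF or Dox (446 ± 158), and was lowest in Nanog SunTag cells with LIF and Dox (10.0 ± 1.02, n = 2). Sox4 led in Nanog SunTag cells without LIF or Dox (3416 ± 254), overlapping with Nanog/Otx2 SunTag cells (2759 ± 381), and was lowest in the groups with LIF and Dox (475 ± 46.3 and 466 ± 59.6). Along the order of Sox21, from 154 ± 130 in 44iN cells with Dox to 8.0 ± 2.2 in Nanog/Otx2 SunTag cells without LIF or Dox, every group overlapped with the next. This was true of Pax6 too, from 468 ± 277 in 44iN cells with Dox to 57.3 ± 61.7 in Nanog SunTag cells with LIF without Dox.

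The clones differed in several members, a comparison added after the data were seen. Over all 26 SunTag libraries, with the 8 groups kept apart in the fit, Pax6 was 2.32-fold and Sox21 2.02-fold higher in C1 than in C2 (log2 differences 1.21 ± 0.23 and 1.02 ± 0.28, adjusted p = 2.43e-04 and 0.00854). Sox11 was lower in C1, at -0.40 ± 0.11 (adjusted p = 0.00580). That makes 2 of 6 members higher in C1, where 16.7% of the genes tested were, and 1 lower, where 14.9% were. In Pax6 the C1 libraries were all above the C2 libraries in 7 of the 8 groups, and in Sox21 in 5. Nanog SunTag cells with LIF and Dox gave a single library of each clone, so the clones always separate there. Several other groups held a single library of a clone, and how many of all genes separate in this way was not counted. Within Nanog/Otx2 SunTag cells alone Pax6 was still called (0.98), and Sox21 (0.51, adjusted p = 0.169) and Sox11 (-0.31, adjusted p = 0.0701) were not.

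Pou3f1 showed no clone difference when all libraries were pooled (-0.02 ± 0.14). Yet its C1 libraries were above the C2 libraries in all 4 groups with LIF. In the groups without LIF, C2 was above C1 in 3 of the 4. The small numbers of libraries per clone limit this order too. With LIF its level was higher in C1 by 0.66 ± 0.16 log2 units (adjusted p = 0.0190), and without LIF lower by -0.39 ± 0.10 (adjusted p = 0.00815). The difference between these was 1.08 ± 0.18 (adjusted p = 0.00389). The rise of Pou3f1 on LIF withdrawal was therefore larger in C2 cells in this fit. Sox11 also had a clone difference that changed with LIF, by 0.66 ± 0.19 (adjusted p = 0.0428), but this call was lost in 19 of the 26 fits that left out a library. These 2 of 6 were called higher, where 3.63% of the genes tested were, and 0 lower, where 1.91% were.

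**Figure D3:**
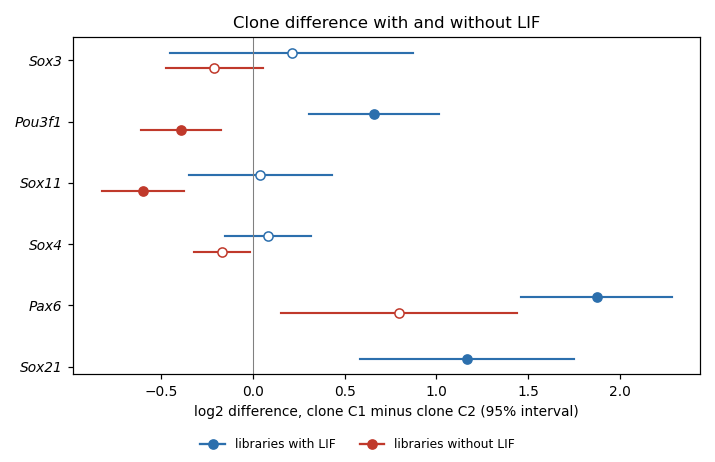
Log2 difference between clones C1 and C2 with 95% interval in the 12 SunTag libraries with LIF (blue) and the 14 without LIF (red), filled where the adjusted p was under 0.05 and Sox21 shown with LIF alone, where it could be tested. Pou3f1 lies above 0 with LIF (0.66) and below 0 without it (-0.39), Sox11 lies below 0 without LIF and Pax6 lies above 0 in both.

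In 44iN cells grown in LIF, the members were compared with Nanog present and 24 h after its withdrawal. Nanog had 13366 and 18394 normalised counts with Dox and 706 and 739 after its removal. Sox11 had 21.8 and 18.7 normalised counts with Dox and 36.0 and 50.3 without, with no overlap, at a log2 difference of -0.98 ± 0.48 for Dox (adjusted p = 0.784). Pax6 had 664 and 272 with Dox against 230 and 85.8, also without overlap (1.65 ± 0.62, unadjusted p = 0.0397, adjusted p = 0.667). Sox4 was lower in both libraries with Dox (1270 and 869, against 1617 and 1497), and Pou3f1 (200 and 138 against 197 and 112) and Sox21 (246 and 62.2 against 103 and 62.1) overlapped.

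None of the 5 members tested in 44iN cells was called by edgeR with the filter on low counts and no block, or by DESeq2, and 1 had an unadjusted p under 0.05. Pax6 was called by edgeR without the filter (1.66 ± 0.43, adjusted p = 0.00932) and with the replicate number as a block (1.68 ± 0.28, adjusted p = 1.05e-07). Without the filter 434 of 22044 genes were called, and with the block 1912 of 14376. With edgeR 0.0% of the 14376 genes tested were called, 1023 genes had an unadjusted p under 0.05, and DESeq2 called 141. Nanog itself, 23.6-fold higher with Dox, was not called by that edgeR test (adjusted p = 0.0902). Sox3 had 6 and 12 counts with Dox and 3 and 0 after its removal, too few for a fold. Pou3f2 had none in any of the 6 libraries of 44iN cells.

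Cells kept without Nanog for long were set beside wild-type Tg2a cells. Sox4 was lower in them, with 565 and 905 normalised counts against 1157, 1796 and 1490 (log2 difference -1.09 ± 0.26, adjusted p = 0.0412), and was the single member called. Pou3f1 was higher in both libraries (292 and 402 against 149, 222 and 203) and Sox21 lower in both (46.0 and 20.4 against 89.8, 92.6 and 64.4), but neither passed the test (0.78 ± 0.27 and -1.37 ± 0.42, adjusted p = 0.114 and 0.0796). Sox11 (51.8 and 51.8 against 42.5, 46.9 and 46.2) and Pax6 (89.2 and 108 against 151, 107 and 85.3) differed by 0.12 ± 0.29 and -0.30 ± 0.33. Thus 1 of 5 tested members was called lower, where 5.26% of the genes tested were, and 0 higher, where 3.35% were. DESeq2 called Sox4, Pou3f1 and Sox21, and over all 14937 genes tested it called 2294, where edgeR called 1286. The edgeR call for Sox4 was lost without the first or the second long-term library or the second Tg2a library (-0.81, -1.51 and -0.91). Clonal history, selection and Nanog cannot be told apart in this pair of lines. Sox3 had 9.1 and 13.6 normalised counts in the long-term cells and 14.9, 9.8 and 16.7 in Tg2a cells.

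**Figure D4:**
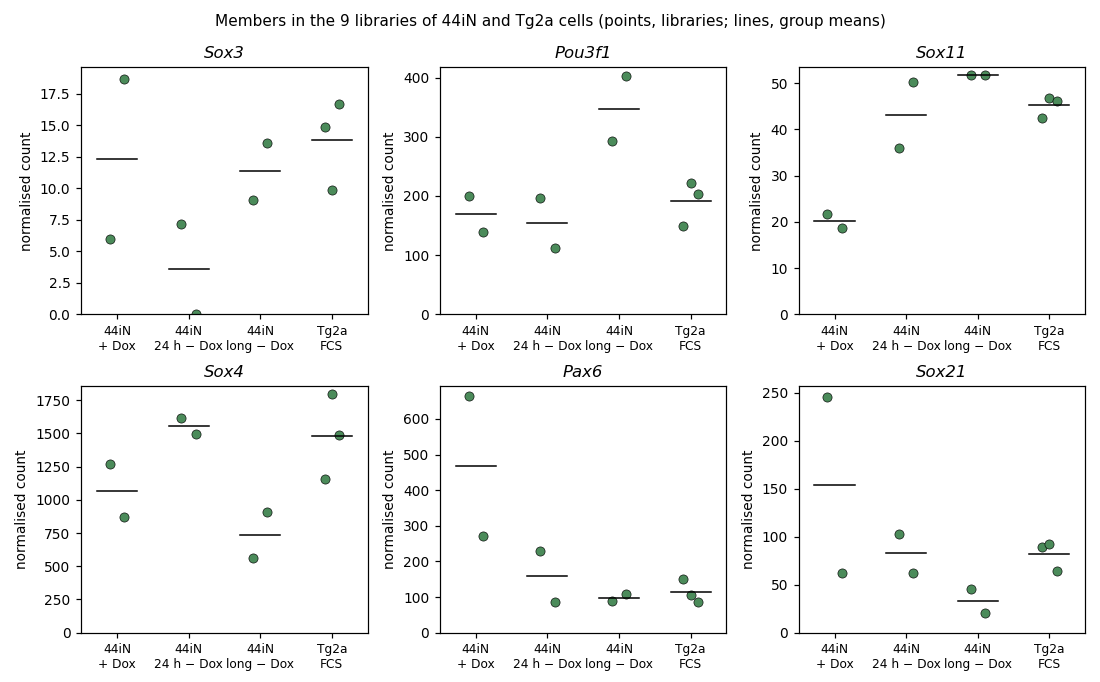
Normalised counts (linear axes from 0) of 6 members in the 9 libraries of 44iN and Tg2a cells grown with LIF, with a point per library and a line at each group mean. Sox11 was below 22 in both 44iN libraries with Dox and at least 36.0 in the others, Pou3f1 was highest in the long-term libraries, and the mean of Sox4 was lowest there.

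Other genes of the same classes and of the neural plate were counted from lists. Of 5 other SoxB, SoxC and POU3 genes, 4 could be tested in Nanog SunTag cells on LIF withdrawal without Dox, and 1 rose and 1 fell. Of all genes tested there, 20.2% were called higher and 21.3% lower. Sox2, the SoxB1 gene of ES cells themselves, fell from a mean of 12018 to 5639 normalised counts (log2 fold change -1.11 ± 0.19, adjusted p = 9.36e-04). Sox14, a SoxB2 gene like Sox21, was called higher, with 0 counts in the libraries with LIF without Dox and a mean of 18.7 normalised counts without LIF or Dox, the group through which it passed the filter on low counts. Of the 3 that could be tested in Nanog/Otx2 SunTag cells 2 rose and 1 fell, where 24.6% and 25.2% of all genes tested did.

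Of 42 early neural genes on a list, 26 could be tested, of which 11 rose, 5 fell and 10 were not called on LIF withdrawal without Dox in Nanog SunTag cells. Their median log2 fold change was 1.74, beside -0.05 over all genes tested, of which 20.2% were called higher and 21.3% lower. Zic2, a zinc-finger gene of the neural plate, rose from a mean of 290 to 4677 normalised counts (4.00 ± 0.28, adjusted p = 2.61e-06) and Nes, the intermediate filament gene nestin, from 187 to 2386 (3.66 ± 0.38, adjusted p = 2.76e-05). Gbx2, a homeobox gene also known as a LIF target in ES cells, fell from 1257 to 107 (-3.59 ± 0.34, adjusted p = 1.43e-05), and Ncam1, a neural adhesion molecule, from 792 to 104 (-2.94 ± 0.17, adjusted p = 8.04e-07). The counts in Nanog/Otx2 SunTag cells were 14 of 25 higher and 6 lower, where 24.6% and 25.2% of all genes tested were.

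With Dox without LIF, 3 of these 26 genes rose, 3 fell and 20 were not called in Nanog SunTag cells (median -0.27, beside 0.00 over all genes). Of all genes tested, 3.6% rose and 1.54% fell. Nes fell (-1.80 ± 0.34, adjusted p = 0.0113), as did Msi1, an RNA-binding protein of neural progenitors (-1.69 ± 0.37, adjusted p = 0.0215), and Ncam1 rose (2.12 ± 0.16, adjusted p = 5.15e-05). For Nanog/Otx2 SunTag cells the counts were 5 of 25 higher and 4 lower, where 11.2% and 6.15% of all genes tested were. The list holds Otx2, the targeted gene of these cells.

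Among 10 genes of the formative epiblast, the state that follows the naive one, 7 rose and 1 fell on LIF withdrawal without Dox in Nanog SunTag cells (median 1.94), and with Dox without LIF 4 fell and 0 rose (median -0.78). Over all genes tested, 20.2% rose and 21.3% fell on LIF withdrawal, and 3.6% rose and 1.54% fell on Dox. Pim2 rose from a mean of 757 to 22760 normalised counts on LIF withdrawal (4.89 ± 0.19), and Fgf5, which had a mean of 4.9 with LIF, reached 2531 without LIF or Dox and 606 without LIF with Dox. Fgf5 could not pass the filter on low counts through the group with LIF without Dox. Sall2 fell on Dox without LIF by 1.41 ± 0.27 on the log2 scale (adjusted p = 0.0114). The single gene that fell on LIF withdrawal was Etv4 (-1.18 ± 0.28). Of 10 naive pluripotency genes, 9 fell on LIF withdrawal (median -4.53) and 9 rose on Dox without LIF (median 2.57). Klf4, at -5.56 ± 0.22, and Tbx3, at -5.31 ± 0.39, fell furthest on LIF withdrawal, and Prdm14 (3.28 ± 0.37) and Esrrb (3.23 ± 0.20) rose most with Dox.

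BMP signals oppose neural fate and act in ES cells through Id genes. Of 15 genes on a BMP and Id list, 5 rose and 4 fell on LIF withdrawal in Nanog SunTag cells without Dox (median 0.29), and 1 rose and 3 fell with Dox without LIF (median -0.27). The shares over all genes tested were 20.2% and 21.3% on LIF withdrawal, and 3.6% and 1.54% with Dox. Id2 rose from a mean of 293 to 1545 normalised counts on LIF withdrawal (2.38 ± 0.29), while the ligand gene Bmp4 fell from 655 to 116 (-2.52 ± 0.22) and the BMP antagonist gene Chrd from 77.2 to 25.0 (-1.66 ± 0.44). With Dox without LIF, Bmp4 rose (1.43 ± 0.21, adjusted p = 0.00302) and Id1 fell (-1.55 ± 0.39, adjusted p = 0.0405). Msx1, a BMP target gene, had means of 3.9 normalised counts with LIF, 99.3 without LIF or Dox and 18.8 without LIF with Dox, and was called in both comparisons. It could not pass the filter on low counts through the group with LIF without Dox.

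**Figure D5:**
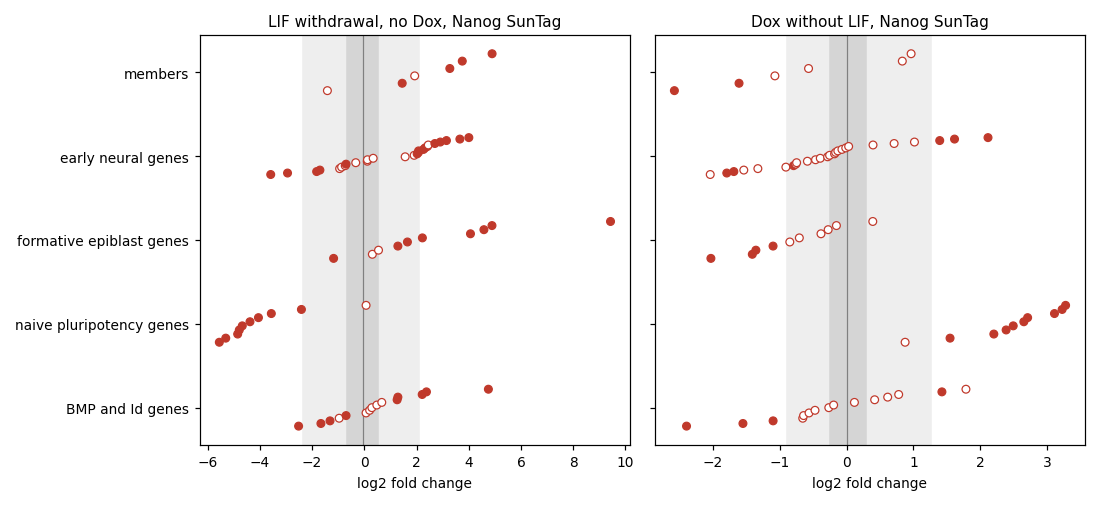
Log2 fold changes in Nanog SunTag cells of the members and of the genes of 4 lists (points, filled where the adjusted p was under 0.05), for LIF withdrawal without Dox and for Dox without LIF, over the middle 50% (dark grey) and 90% (light grey) of all genes tested. Formative epiblast genes lie mostly to the right and naive pluripotency genes to the left on LIF withdrawal, with the opposite on Dox, and early neural genes lie on both sides.

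Markers of other cell types were counted for LIF withdrawal without Dox in Nanog SunTag cells, where 20.2% of all genes tested were called higher and 21.3% lower. Of 8 mesendoderm markers tested 3 rose and 2 fell, and their summed level went from between 255 and 417 normalised counts to between 653 and 805. Wnt3 had a mean of 1.7 normalised counts with LIF and 69.1 without, Mixl1 rose from 14.5 to 52.4, and Sox17 and Mesp2 fell. Wnt3 could not pass the filter on low counts through the group with LIF without Dox. Nor could Sox17, with a mean of 8.0, through the group without LIF or Dox. Of 9 extraembryonic endoderm markers 1, Lamb1, rose (0.72 ± 0.17) and 7 fell, among them Hnf4a (-3.73 ± 0.34) and Gata6 (-2.66 ± 0.57). Their sum stayed between 9537 and 12880 in both groups.

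Of 8 trophoblast markers 4 rose and 1 fell. Krt18 (2.54 ± 0.27) and Krt8 (1.85 ± 0.20) rose, and Tfap2c fell (-3.14 ± 0.28). Their sum was between 1524 and 2424 with LIF and between 2350 and 2461 without. Of 5 neural crest markers 1, Sox10, rose, from a mean of 5.1 to 25.8 normalised counts, and their sum was between 479 and 865 with LIF and between 818 and 1276 without. Sox10 could not pass the filter on low counts through the group with LIF without Dox. With Dox without LIF, 3.6% of all genes tested rose and 1.54% fell. There, 1 mesendoderm marker, Evx1, rose (2.56 ± 0.48) and Mixl1 fell (-1.70 ± 0.40). Hnf4a (1.44 ± 0.33) and Tfap2c (1.89 ± 0.27) rose, and no neural crest marker was called. The part of these cells in the members' changes was not tested.

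Genes with levels most like each member over the 26 SunTag libraries were found by Pearson's r of log2 normalised counts among 11294 genes. The libraries share cells and media, so r is given as a description. Sox3 was most like Smo (0.974), Agpat6 (0.971) and Csnk1d (0.964), Sox4 most like Lrp2 (0.984), Slc38a2 (0.962) and Grb10 (0.961), and Sox11 most like Fzd2 (0.978), Gm98 (0.975) and Jub (0.968). Pou3f1 was most like Vwa2 (0.983), Vrtn (0.981) and Ptpn13 (0.981). Likeness was looser for Sox21, with Abcb1a (0.882), Dennd2c (0.867) and Mkrn2 (0.861), and for Pax6, with Pnrc2 (0.845), Cdc42se1 (0.832) and Adk (0.818). Among the members, r was 0.945 between Sox3 and Pou3f1, 0.924 between Sox11 and Pou3f1 and -0.644 between Sox21 and Pou3f1.

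The promoters of the SoxC genes Sox4 and Sox11, both called higher on LIF withdrawal without Dox in Nanog/Otx2 SunTag cells, and of the SoxB2 gene Sox21, called lower there, are shown to set their base composition side by side. Each line is the 250 bases before the RefSeq start on GRCm38.p6, on the strand of the gene, with CG dinucleotides in capitals.
Sox4: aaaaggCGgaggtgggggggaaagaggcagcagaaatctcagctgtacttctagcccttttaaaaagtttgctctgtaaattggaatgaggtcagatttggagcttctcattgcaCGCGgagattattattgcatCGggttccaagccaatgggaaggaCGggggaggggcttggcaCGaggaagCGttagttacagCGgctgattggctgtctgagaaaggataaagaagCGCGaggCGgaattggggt
Sox11: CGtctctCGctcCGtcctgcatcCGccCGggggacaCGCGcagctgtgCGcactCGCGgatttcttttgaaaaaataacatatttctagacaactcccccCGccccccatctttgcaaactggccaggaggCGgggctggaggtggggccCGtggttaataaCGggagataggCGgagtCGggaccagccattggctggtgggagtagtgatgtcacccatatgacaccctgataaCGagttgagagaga
Sox21: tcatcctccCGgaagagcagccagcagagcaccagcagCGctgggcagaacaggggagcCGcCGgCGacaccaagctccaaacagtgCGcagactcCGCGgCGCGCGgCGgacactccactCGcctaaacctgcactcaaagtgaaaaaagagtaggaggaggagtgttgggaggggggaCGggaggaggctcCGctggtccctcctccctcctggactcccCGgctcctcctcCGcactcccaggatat
They lie at chr13:28953700-28953949, chr12:27342719-27342968 and chr14:118237031-118237280, all on the minus strand.

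The Sox4 window holds 11 CG dinucleotides and those of Sox11 and Sox21 hold 17 each, where the median of 32851 promoter windows is 6. At least 11 were found in 35.6% of all windows, and at least 17 in 23.5%. None of the 3 holds, on either strand, the octamer ATGCAAAT, found in 1.6% of all windows, the Sox motif ACAAAG, found in 16.5%, or the Otx2-type homeodomain motif TAATCC, found in 6.25%. The table held windows for 5 members. Pou3f2 and the first of 2 windows of Pax6 also held no such motif, and the second Pax6 window held 1 ACAAAG.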

How the data were processed

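RNA was sequenced from stranded poly(A) libraries in 65-base single reads. The authors aligned reads to mm9 with STAR and estimated counts per gene with RSEM, and they deposited these estimated counts as whole numbers together with a normalised signal, which is each count divided by a DESeq2 size factor per library. The annotation version is not given in the sources used here. The tables hold 35 libraries, and 3 further RNA samples without a column were not analysed here. The total per library was 6107512 to 92244655 (median 29298745), which sets the precision of low genes.

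Samples were grouped by their labels. A gene was tested where all libraries of any 1 group of a model reached 10 normalised counts, with edgeR 4.0.16 (R 4.3.3; TMM, quasi-likelihood F-test, two-sided, Benjamini-Hochberg threshold 0.05 over all genes tested). Nanog SunTag, Nanog/Otx2 SunTag, 44iN and long-term 44iN with Tg2a libraries were fitted separately, and comparisons between guides used all 26 SunTag libraries. Exact permutation of 3 libraries against 3 cannot reach 0.05. DESeq2 1.42.0, its size factors, no filter and leaving out each library were alternatives. A pseudocount of 1 served plots and correlations, the latter over genes with a mean of at least 100. Scripts were tested on simulated data. Python 3.11.15, pandas 2.3.3, numpy 2.4.6 and matplotlib 3.10.9 were used.

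Libraries of a clone come from the same cell line, so the clone pairs SunTag libraries. Deviations from group means correlated at a mean r of 0.148 within and -0.142 between clones in Nanog SunTag cells, and at 0.299 within a clone and number in Nanog/Otx2 SunTag cells against -0.100 otherwise. The number is that of the sample title, and for some SunTag libraries the column name has another. The C2-1 library of Nanog/Otx2 SunTag cells with LIF without Dox has 2 there. Which number is right was not settled, so a block by column number was also fitted. No libraries were identical.

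Members and gene lists were chosen with earlier results of these data known. All members are named, and from each list, for LIF withdrawal without Dox and Dox without LIF in Nanog SunTag cells, the 2 called genes with the largest change in each direction, and for each member the 3 genes of most similar level. A gene that the rule names is not reported here. Tests of the clones, a block by column number, the clone block in Nanog/Otx2 SunTag cells and a sum of both identifiers were chosen after seeing the data. Promoter windows are RefSeq sequences (GRCm38.p6) and carry no coordinates of mm9.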

Additional observations from a re-analysis of the deposited data

Results flagged for a closer look

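In groups of 4 libraries the lowest or highest value was set against the rest by Dixon's ratio, over 18 groups of members, and 3 stood out, where chance gives about 1 in 20 groups. They were Sox3 in Nanog/Otx2 SunTag cells with LIF and Dox, where C2-2 was lowest at 17.8 normalised counts, Sox4 in the same cells without LIF with Dox, where C2-2 was highest at 2212, and Sox21 there, where C1-2 was highest at 17.5.

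The effect of Dox differed with LIF by test in 4 cases. It was lower without LIF by -2.82 log2 units for Sox3 and -1.73 for Pou3f1 in Nanog SunTag cells, and higher without LIF by 0.61 for Sox4 and 2.28 for Sox21 in Nanog/Otx2 SunTag cells. Sox21 was near the floor without LIF, where a further fall on Dox could hardly have shown. The same holds for Sox3 with LIF in Nanog SunTag cells, where its reads were few. The signed log2 difference, C1 minus C2, was higher with LIF than without it by 0.66 for Sox11 and 1.08 for Pou3f1. These values give a change of the signed difference and not of its size.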

How the results depend on the processing

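Low counts of Sox21 and of Sox3 with LIF, and 2 or 3 libraries in several groups, limit the calls. Causes of the changes below were not tested. Members called for Dox with LIF in Nanog SunTag cells went from 1 to 2 with DESeq2, without the filter, with the clone block and with all 26 libraries together, and to 0 with the column-number block. For Dox without LIF there they went from 2 to 4 with DESeq2, both blocks and all 26 libraries, and for the interaction from 2 to 0 with the column-number block. The interaction in Nanog/Otx2 SunTag cells went from 2 to 5 with each of the 3 blocks and to 1 with all 26 libraries. In 44iN cells Dox against 24 h gave 1 in place of 0, Pax6, without the filter or with the replicate number as a block, and long-term 44iN against Tg2a gave 3 with DESeq2, 2 without the filter, 3 with the number block and 0 with all 9 libraries, in place of 1. No source says what a shared number stands for in 44iN cells, where the mean r was 0.492 within a number and -0.492 otherwise, and 2 libraries a group cannot show whether the numbers pair them. The clone difference gave 1 in place of 3 in Nanog/Otx2 SunTag cells alone. The blocks changed no other number of members called by over 1.5 times.

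Directions turned as follows, all but the last in differences that were not called over all libraries. Sox21 on LIF withdrawal with Dox in Nanog SunTag cells was -0.26 (clone block) and -0.0087 (column-number block), Pou3f1 for Dox with LIF was -0.11 there and Pax6 for the interaction 0.91. In Nanog/Otx2 SunTag cells Pax6 on LIF withdrawal was 0.11, 0.061 and 0.13 and Pou3f1 for Dox with LIF -0.074, -0.036 and -0.026 under the 3 blocks. Between clones, Sox3 was 0.094 in Nanog cells alone and 0.21 with LIF alone, Sox4 0.085 with LIF, Pou3f1 0.036 with DESeq2, 0.043 in Nanog/Otx2 cells alone and 0.66 with LIF. Sox11, called lower in C1 over all libraries, was 0.042 with LIF alone.

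Without 1 library at a time (a lone library left in a group was assumed to vary like the others), the members called in Nanog SunTag cells were 4 to 5 for LIF withdrawal without Dox, 3 to 4 with Dox, 0 to 2 for Dox with LIF, 2 to 4 for Dox without LIF and 0 to 2 for the interaction. For Nanog/Otx2 SunTag cells they were 5 to 5, 6 to 6, 2 to 4, 2 to 4 and 1 to 3. Between guides they were 0 to 0 for both Dox effects, 3 to 4 for the level with Dox and 0 to 4 for that without it. For 44iN at 24 h they were 0 to 1, for long-term 44iN 0 to 2, for the clones 3 to 3 and for their change with LIF 1 to 2. Pax6 on LIF withdrawal without Dox in Nanog SunTag cells was called without the C1-1 library with LIF (3.26, adjusted p = 0.0107). In Nanog/Otx2 SunTag cells the same fits called 6682 to 7777 and 4898 to 6041 of all genes for LIF withdrawal without and with Dox. For Dox with LIF, Dox without LIF and the interaction they called 1962 to 4036, 1756 to 3007 and 870 to 1847. The number of all genes called moved in the fits of the other cells too, so ranges of members are not particular to them.

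Log2 differences that turned when 1 library was left out, none of them called over all libraries, ranged in Nanog SunTag cells from -0.55 to 1.19 (Sox21, LIF withdrawal with Dox), -0.25 to 0.66 and -0.19 to 0.38 (Sox3 and Pou3f1, Dox with LIF) and -1.56 to 0.82 (Pax6, interaction). In Nanog/Otx2 SunTag cells they ranged from -0.47 to 0.16 (Pax6, LIF withdrawal), and from -0.27 to 0.14 and -0.28 to 0.18 (Sox3 and Pou3f1, Dox with LIF). Between guides they ranged from -0.073 to 0.13 and -1.26 to 0.40 (Sox4 and Sox21, Dox without LIF), -0.78 to 0.15 and -0.39 to 0.21 (Sox3 and Pou3f1, Dox with LIF) and -0.25 to 1.18 (Pax6, level without Dox). In 44iN cells at 24 h they ranged from -0.31 to 1.62 (Sox21) and -0.086 to 0.67 (Pou3f1), and between clones from -0.15 to 0.0021 (Sox3) and -0.095 to 0.064 (Pou3f1).

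Genes called for Dox with LIF in Nanog SunTag cells were 88, and 587 with DESeq2, 151 without the filter, 293 with the clone block, 1 with the column-number block and 905 with all 26 libraries. For Dox without LIF they were 803, and 1509 (DESeq2), 1375 (clone block) and 2023 (all 26), and for the interaction 302, and 877, 709 and 1197. Those in Nanog/Otx2 SunTag cells were 3577, 2702 and 1514 for the same comparisons. The clone-number, column-number and clone blocks and all 26 libraries gave 6401, 6519, 5831 and 2288 for Dox with LIF, 5215, 5398, 4690 and 1789 for Dox without LIF, and 3407, 3331, 2887 and 974 for the interaction. Differences between guides gave 5 and 6 (without and with LIF), 41 and 54 with DESeq2 and 8 and 18 with the clone block. For 44iN at 24 h there were 0, and 141 with DESeq2, 434 without the filter, 1912 with the number block and 123 with all 9 libraries. For long-term 44iN there were 1286, and 2294, 4840 with the number block and 803. For the clones there were 5123, and 1129 in Nanog cells alone and 2248 with LIF alone, and for their change with LIF 897, and 1392 with DESeq2.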
